A study of Homo sapiens with 9 samples.

Results

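Oxidative phosphorylation was followed through 97 of the 24204 genes measured in HepG2, a human liver cancer cell line, after knockdown of TRIB3. Members were chosen by symbol. They are the 13 messenger RNA genes of the mitochondrial genome and 84 nuclear genes whose symbols begin with NDUFA, NDUFB, NDUFC, NDUFS or NDUFV and a number (complex I), are SDHA to SDHD (complex II), or begin with UQCR (complex III), COX4 to COX8 (complex IV) or ATP5 (complex V). The name patterns matched 103 rows, of which 6 were divergent or antisense transcripts and were left out. All 13 mitochondrial genes and 78 of the nuclear genes, 91 in all, reached an FPKM (fragments scaled to gene length and library total) of 1 or more in 3 or more of the 9 libraries and were tested. The 78 nuclear genes comprised 37 of complex I, 4 of complex II, 9 of complex III, 11 of complex IV and 17 of complex V. NDUFA4, which is nowadays placed in complex IV, was counted with complex I by its symbol.

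RNA-seq was made from 3 groups of 3 libraries. Each group was infected for 48 h with a lentivirus and then selected for 48 h with puromycin, so the control cells share both steps. The virus of the shCtrl group carried a control short hairpin RNA, and the shTRIB3-1 and shTRIB3-2 groups received 2 separate hairpins that target TRIB3 messenger RNA and leave the gene intact. The labels do not say that the selected cells were single clones. TRIB3 is a pseudokinase induced when amino acids are short, and the comparison asks which transcripts depend on it.

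The respiratory chain passes electrons from NADH (through complex I) and succinate (through complex II) by way of complex III to complex IV, which reduces oxygen. Complexes I, III and IV pump protons across the inner mitochondrial membrane, and complex V, the ATP synthase, lets them back through a rotating ring to make ATP. Complex II is encoded wholly in the nucleus, while the other complexes also need subunits from the mitochondrial genome, which is transcribed from both of its strands as long precursors. Hepatocytes are rich in mitochondria, and their respiration also serves gluconeogenesis and urea synthesis.

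The hairpin targets are given because each measurement below is made against them, and both lie in coding sequence of TRIB3 on the plus strand of GRCh38. The target of shTRIB3-1 is in exon 2 at chr20:388072-388092 and that of shTRIB3-2 in exon 3 at chr20:391473-391493.
shTRIB3-1: tggatgacaacttagataccg
shTRIB3-2: gccgtgctcttccgccagatg
TRIB3 itself was at 67.9, 65.8 and 66.6 FPKM in shCtrl, at 34.1, 32.7 and 34.0 in shTRIB3-1 and at 20.6, 20.7 and 20.4 in shTRIB3-2. The libraries of each knockdown lay below all control libraries, with log2 fold changes of -0.99 and -1.70, and the hairpins differed from each other by -0.71 (limma, adjusted p = 9.54e-09).

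Libraries held 34206726 to 36311029 fragments, and all 8 hepatocyte markers checked were expressed, ALB at 4929 FPKM or more. Of 9 markers of blood, endothelial, stromal and biliary cells, 7 were at or near 0, CD14 was at 0.245 to 1.27 FPKM, and ACTA2 was at 39.1 to 62.9. In shCtrl replicate 1, shTRIB3-1 replicate 1 and shTRIB3-2 replicate 2, 12 of the 13 mitochondrial genes lay above the mean of their own group, by a median of 0.15, 0.10 and 0.14 on the log2 scale. Mitochondrial results are therefore also given without these 3 libraries, a choice made after seeing the data. Many genes changed in this experiment, so the counts of members below are to be read against the shares of all 11265 tested genes with the same call. Full separation of libraries was common as well. With shTRIB3-1, 3849 of the 11265 tested genes lay above control in all libraries and 4843 below. With shTRIB3-2 it was 4064 and 4655. Among the 78 nuclear members it was 16 and 33 with shTRIB3-1 and 13 and 28 with shTRIB3-2. Among the 13 mitochondrial genes it was 9 and 1, and 7 and 1.

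In bulk RNA, more transcript per cell and more cells or mitochondria carrying it cannot be told apart. With that limit, the messenger RNAs of the mitochondrial genome took a larger part of the libraries after knockdown and the nuclear members a smaller one. The 13 mitochondrial genes took 6.10%, 5.30% and 5.31% of all fragments in shCtrl, 7.01%, 6.48% and 6.29% in shTRIB3-1, and 6.59%, 7.22% and 6.52% in shTRIB3-2. Every knockdown library lay above every control library, although the lowest shTRIB3-1 library exceeded the highest control by less than the spread within shCtrl. The group means were 5.57% ± 0.462, 6.59% ± 0.374 and 6.78% ± 0.388 (SD, n = 3 each), ratios to control of 1.18 and 1.22. Leaving out any 1 of the 13 genes moved those ratios only within 1.17 to 1.20 and 1.20 to 1.23, so no single gene carried them.

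The 84 nuclear genes together took under 1% of fragments. Their share was 0.707%, 0.743% and 0.741% in shCtrl, 0.651%, 0.683% and 0.670% in shTRIB3-1, and 0.657%, 0.696% and 0.662% in shTRIB3-2. Again no knockdown library overlapped the controls, here from below. This share is a sum in which genes with many fragments weigh most, and leaving out single nuclear genes was not tried. The ratio of mitochondrial to nuclear fragments was 8.63, 7.12 and 7.17 in shCtrl, 10.8, 9.49 and 9.39 in shTRIB3-1, and 10.0, 10.4 and 9.84 in shTRIB3-2. The hairpins overlapped each other in all these measures. With 3 libraries against 3, a two-sided exact permutation test cannot go below p = 0.10, so the shares are given as values.

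**Figure D1:**
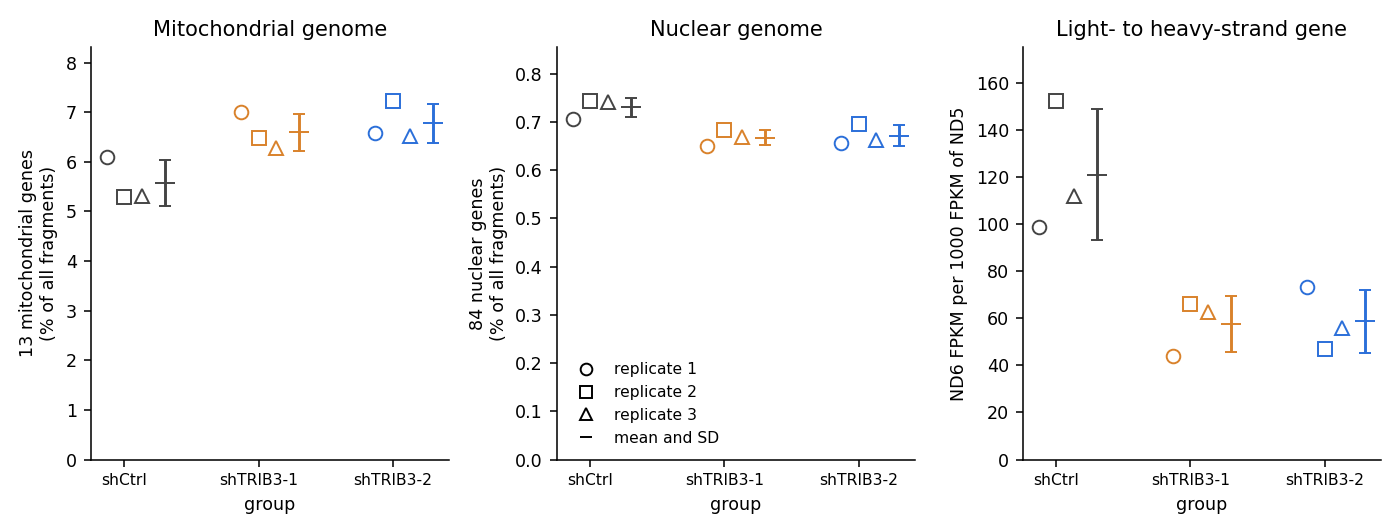
Share of all fragments from the 13 mitochondrial genes and from the 84 nuclear genes (percent), and FPKM of ND6 per 1000 FPKM of ND5, in each of the 9 libraries (points) with the group mean and SD (bars, n = 3). The mitochondrial share was 5.30% to 6.10% in shCtrl and 6.29% to 7.22% in the knockdown libraries, the nuclear share moved the other way, and the ND6 ratio was 98.8 to 152 in shCtrl against 43.8 to 73.2.

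The order of the mitochondrial messenger RNAs, per length and as group means in shCtrl, was COX1, COX3, COX2, ND4, ATP6, ND4L, ND1, ND2, CYTB, ND3, ND5, ATP8 and ND6. COX1 to COX3 encode the catalytic core of complex IV, ND1 to ND6 and ND4L the membrane arm of complex I, CYTB the heme protein of complex III, and ATP6 and ATP8 parts of the membrane sector of ATP synthase. Levels in shCtrl ran from 143 to 202 FPKM for ND6 up to 9607 to 11089 for COX1, with a median of 4330 over the 13 means, while the 78 tested nuclear members ran from 4.69 (NDUFA3) to 361 (ATP5F1B) with a median of 52.4. Only COX2 and ND4, ND1 and ND2, ND3 and ND5, ND5 and ATP8, and ATP8 and ND6 were neighbours whose control libraries did not overlap. The first 4 and last 3 places were the same in all 3 groups, and the genes between changed places by at most 2.

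Most heavy-strand messenger RNAs were higher after knockdown and ND6 was lower. Quantile normalization removed most of the rise but not the fall. It sets the highest ranks of each library equal, so it cannot test a rise of genes at those ranks. With shTRIB3-1, 11 of the 13 genes were higher and 1 was lower at adjusted p under 0.05 (limma), where 32.9% of all tested genes were higher and 41.5% lower. With shTRIB3-2, 7 were higher and 1 lower, against 35.4% and 40.5% of all tested genes. The median log2 fold change of the 13 genes was 0.26 and 0.31, beside -0.06 and -0.03 over all tested genes. These rises were small: with a minimum rise of 25% or fall of 20% as well, 3 were higher and 1 lower with shTRIB3-1 (21.8% and 27.9% of all tested genes) and 5 were higher and 1 lower with shTRIB3-2 (24.2% and 27.6%). Both comparisons use the same 3 control libraries and are not independent of each other.

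The number of mitochondrial genes called higher depended on single libraries and on the method. With shTRIB3-1 it was 5 without shCtrl replicate 2, 5 without shTRIB3-1 replicate 1 and 7 without shCtrl replicate 3, and it was 4 when genes of any level entered the fit. With shTRIB3-2 it was 10 without shCtrl replicate 1 and 11 with limma voom on fragment numbers, and 3 with genes of any level. Without the 3 libraries named above together it was 11 and 10. The median with shTRIB3-2 was 0.19 without shTRIB3-2 replicate 2. Under quantile normalization, which sets the highest ranks of each library to the same values, it was 1 higher and 1 lower with shTRIB3-1 and 1 higher and 2 lower with shTRIB3-2, with medians of 0.05 and 0.

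**Figure D2:**
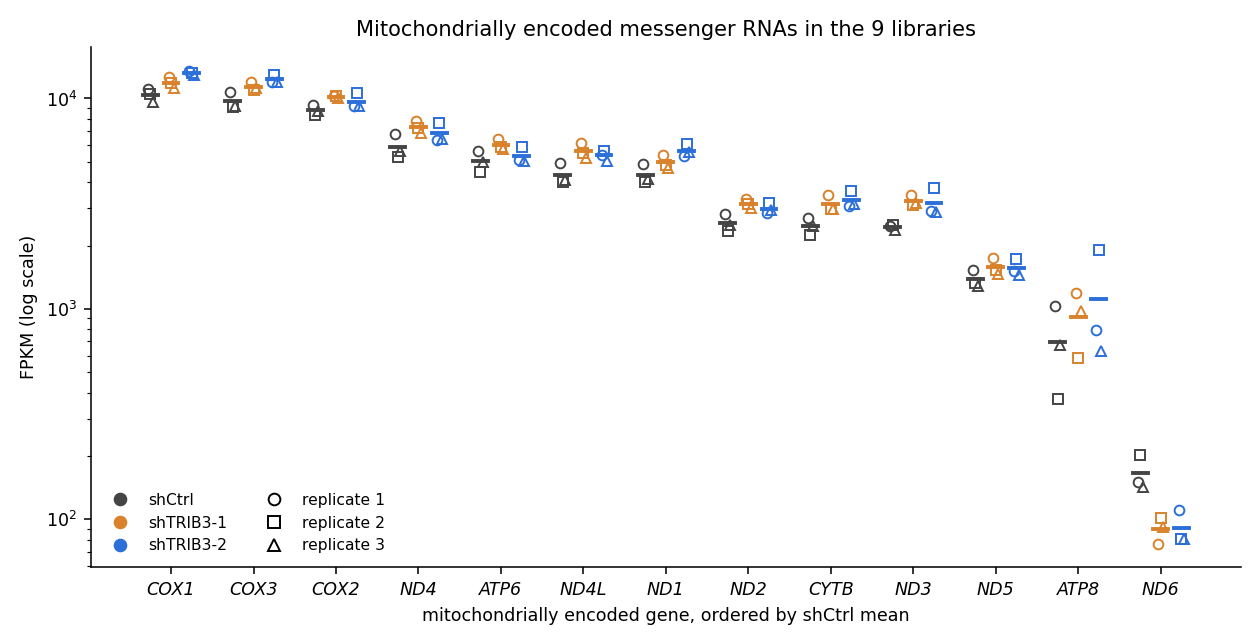
FPKM (log axis) of the 13 mitochondrially encoded messenger RNAs in each of the 9 libraries (points) with group means (bars), ordered by the shCtrl mean. COX1 ran from 9607 to 13504 FPKM and ND6 from 76.6 to 202. The heavy-strand genes sit higher in most knockdown libraries on this FPKM scale. Quantile normalization, which by construction sets the top ranks equal, removed most of that rise, while ND6 sits lower under both.

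Of the complex IV core, COX1 (chrM:5904-7445), the subunit that holds the oxygen-reducing center, was at 11089, 10544 and 9607 FPKM in shCtrl, at 12592, 11834 and 11232 in shTRIB3-1, and at 13504, 13276 and 12906 in shTRIB3-2. Neither knockdown group overlapped the controls, with log2 fold changes of 0.19 (SE 0.07, adjusted p = 0.0233) and 0.35 (adjusted p = 0.000551). COX3 rose by 0.24 and 0.35 on this scale, and changed by -0.05 and 0 after quantile normalization, under which COX1 was at 0 with both hairpins. COX2, which receives electrons from cytochrome c, changed by 0.21 (called) and 0.13 (not called, adjusted p = 0.0993), and by -0.06 with both hairpins after quantile normalization. With shTRIB3-1 the calls were lost for COX1 without shCtrl replicate 3, shTRIB3-1 replicate 1 or shTRIB3-1 replicate 2 (adjusted p = 0.0547 to 0.13), for COX3 without shCtrl replicate 2, shCtrl replicate 3 or shTRIB3-1 replicate 1 (0.0514 to 0.0539), and for COX2 without shCtrl replicate 2 (0.0581). COX2 was called with shTRIB3-2 without shCtrl replicate 1 (0.0462).

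CYTB (chrM:14747-15887) was at 2711, 2250 and 2470 FPKM in shCtrl, at 3492, 2996 and 2979 in shTRIB3-1, and at 3094, 3635 and 3160 in shTRIB3-2, without overlap between control and knockdown (log2 fold changes 0.35 and 0.41). Among the heavy-strand genes of complex I, ND3 (chrM:10059-10404) was at 2469, 2496 and 2359 FPKM in shCtrl, at 3471, 3105 and 3200 in shTRIB3-1, and at 2906, 3772 and 2897 in shTRIB3-2, log2 fold changes of 0.42 and 0.38 without overlap. ND1 (0.20 and 0.39), ND2 (0.31 and 0.23) and ND4L (0.38 and 0.31) were called higher with both hairpins, although ND2 was at -0.04 and -0.09 after quantile normalization. Over the 20 alternatives CYTB went down to 0.10 and 0.17 and ND3 to 0.05 and 0.02. ND1 went down to 0 and 0.11 and ND4L to 0.09 and 0.04. The calls of CYTB and ND3 were lost under 1 alternative with each hairpin. Those of ND4L were lost under 1 and 2, and those of ND1 under 8 and 0. ND4 (0.31, then 0.21 with adjusted p = 0.0614) and ND5 (0.20, then 0.18 with adjusted p = 0.0625) were called with shTRIB3-1. ND4, ND5, COX2 and ATP6 did not pass the test between the hairpins, so the missing calls with shTRIB3-2 do not by themselves show a difference. ATP6 and COX2 passed it, lower with shTRIB3-2, without shTRIB3-2 replicate 2 (-0.24 and -0.15, adjusted p = 0.0400 and 0.0366) and, with ND4, without the 3 libraries named above (0.0164, 0.0110 and 0.0386). ATP6 also passed it with voom (0.0112) and after quantile normalization (-0.30, adjusted p = 0.000155). The calls of ND1 and ND5 with shTRIB3-1 were lost without shCtrl replicate 2 or 3 or shTRIB3-1 replicate 1 or 2, that of ND1 also without shTRIB3-2 replicate 3 and that of ND5 without shTRIB3-2 replicate 1 (adjusted p = 0.0538 to 0.169 and 0.0558 to 0.195), and that of ND4 was lost without shCtrl replicate 2 or shTRIB3-1 replicate 1 (0.0558 and 0.0510). With shTRIB3-2, ND4 was called without shCtrl replicate 1 (0.00505), and ND5 without shCtrl replicate 1, shTRIB3-1 replicate 1 or shTRIB3-2 replicate 3 (0.0108 to 0.0441).

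Neighbouring mitochondrial genes share bases, which matters for counting fragments. The overlaps are shown on the plus strand of GRCh38, with the start codon of the downstream gene and the stop codon of the upstream gene in capitals. ATP8 and ATP6 share 46 bases (chrM:8527-8572), ATP6 and COX3 share 1 base (within chrM:9201-9213), and ND4L and ND4 share 7 bases (within chrM:10754-10772).
ATP8 and ATP6: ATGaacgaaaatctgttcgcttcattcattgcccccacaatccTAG
ATP6 and COX3: cacaTAATGaccc
ND4L and ND4: actccaATGcTAAaactaa
ATP8 shares 22.2% of its 207 bases with ATP6. It was at 1033, 374 and 674 FPKM in shCtrl, at 1192, 585 and 975 in shTRIB3-1, and at 790, 1910 and 629 in shTRIB3-2, the widest spread relative to its level of the 13 genes. Its log2 fold changes of 0.46 and 0.62 (SE 0.42) were not called. ATP6 was higher by 0.26 with shTRIB3-1 (adjusted p = 0.0169), changed by 0.09 with shTRIB3-2 (adjusted p = 0.361), and changed by 0.10 and -0.20 after quantile normalization, and its call with shTRIB3-1 was lost without shCtrl replicate 2 or shTRIB3-1 replicate 1 (adjusted p = 0.0717 to 0.0844). The FPKM of ATP8 relative to ATP6 ran from 0.0838 to 0.323 over the 9 libraries, and the groups overlapped.

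ND6, a membrane subunit of complex I, is the single messenger RNA gene of the 13 that is read from the other strand (chrM:14149-14673, minus), and its end meets the end of ND5 (chrM:12337-14148, plus). The junction is shown on the plus strand (chrM:14134-14163), with the stop codon of ND5 and then the last codon of ND6, which reads AGG on its own strand, in capitals.
ND5 and ND6: ctcctaatcacaTAACCTattcccccgagc
ND6 was at 151, 202 and 143 FPKM in shCtrl, at 76.6, 102 and 91.8 in shTRIB3-1, and at 111, 80.9 and 81.0 in shTRIB3-2. Every knockdown library lay below every control library, and the groups of the hairpins overlapped. The log2 fold changes were -0.87 (SE 0.15, adjusted p = 0.000177) and -0.86 (SE 0.15, adjusted p = 0.000183). Over the 20 alternatives they lay between -0.97 and -0.72 and between -1.01 and -0.71, each called, quantile normalization and all left-out libraries included. Set against its neighbour ND5, ND6 was at 98.8, 152 and 112 FPKM per 1000 FPKM of ND5 in shCtrl, at 43.8, 66.2 and 62.6 in shTRIB3-1, and at 73.2, 47.1 and 55.7 in shTRIB3-2. Whether the authors counted by strand is not given in the sources used here. Without it, fragments from the opposite strand of the ND6 region cannot be told apart from ND6 itself, and their part in the result was not tested.

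Between the hairpins, limma called 0 of the 13 mitochondrial genes in either direction, where 25.1% of all tested genes were higher and 20.7% lower with shTRIB3-2. At an unadjusted p under 0.05 there were 2, and limma voom called 3 higher and 1 lower, with 5 at an unadjusted p under 0.05. The shares of all tested genes under these 2 rules are not given. Without shTRIB3-2 replicate 2, 3 were called lower. Without the 3 libraries named above, 3 were higher and 4 lower. COX1 alone had all shTRIB3-2 libraries above all shTRIB3-1 libraries, as did 3396 of the 11265 tested genes. Its log2 difference of 0.16 was called under 4 of the 20 alternatives and was 0 under quantile normalization. The annotation names between 2 (ATP8) and 48 (COX1) nuclear pseudogenes for the mitochondrial genes, so fragments of all 13 could be split with near-identical copies.

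The nuclear members split, with more falls than rises, and their calls were close to or below those of other genes. With shTRIB3-1, 14 of the 78 tested were higher and 33 lower (17.9% and 42.3%, beside 32.9% and 41.5% of all tested genes), and 31 were not called. With shTRIB3-2, 12 were higher and 30 lower (15.4% and 38.5%, beside 35.4% and 40.5%). Their median log2 fold change was -0.05 and -0.03, the same to within 0.01 as that of all tested genes. The split depends on scaling: it was 9 higher and 41 lower with shTRIB3-1 after rescaling to TPM (length-scaled values that sum to the same total in every library), and 20 and 24 with shTRIB3-1 and 16 and 25 with shTRIB3-2 after centring each library on its median. With shTRIB3-2 and without the 3 libraries named above it was 10 and 40, with a median of -0.10, and the median was -0.07 without shTRIB3-2 replicate 2 alone. With a minimum rise of 25% or fall of 20%, 2 were higher and 15 lower with shTRIB3-1, and 4 were higher and 14 lower with shTRIB3-2, beside 21.8% and 27.9%, and 24.2% and 27.6%, of all tested genes.

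Of the nuclear members, 27 were called lower and 7 higher with both hairpins, 24 with neither, and 1 (NDUFA3) in opposite directions by the test. The share of all tested genes called alike with both hairpins is not given. These joint counts therefore cannot be set against other genes, here or where they are used for promoters. The libraries of NDUFA10 also separated from control in opposite directions, at 10.97, 11.05 and 11.06 FPKM in shCtrl, 12.2, 12.1 and 12.3 in shTRIB3-1, and 10.8, 10.1 and 10.4 in shTRIB3-2, but only the rise was called (0.15, then -0.08 with adjusted p = 0.0739). At an absolute log2 fold change above 1, 0 of the 91 tested members were called with shTRIB3-1 (5.39% of all tested genes were higher and 6.1% lower). With shTRIB3-2 it was 1, ATP5F1D, lower (6.06% higher and 6.27% lower). At an unadjusted p under 0.05 with no minimum change, limma gave 12 mitochondrial and 47 nuclear members with shTRIB3-1, and 10 and 42 with shTRIB3-2. At adjusted p under 0.05, voom called 12 and 48 with shTRIB3-1 and 12 and 41 with shTRIB3-2. The shares of all tested genes under these rules are not given, so these counts cannot be set against other genes. The difference between the mitochondrial and nuclear medians was 0.31 and 0.34, and 0.12 and 0.05 after quantile normalization.

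**Figure D3:**
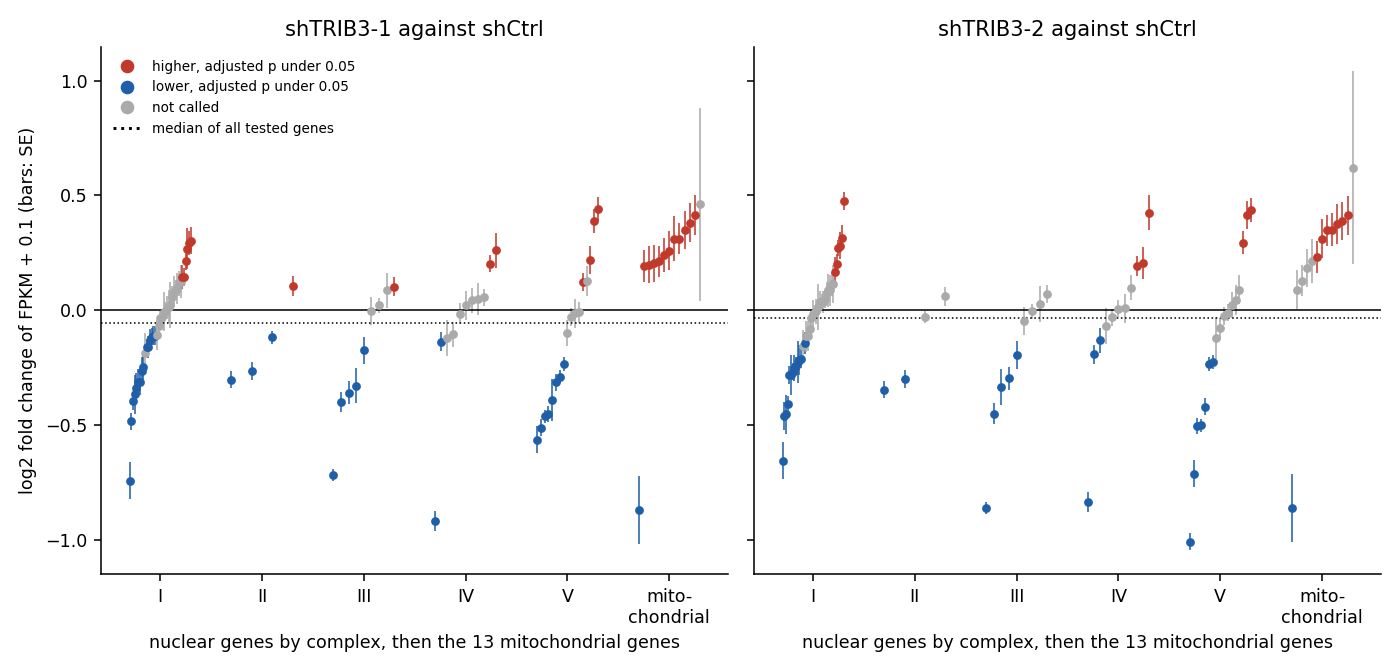
Log2 fold change of FPKM + 0.1 with its SE for each of the 91 tested members, sorted within the nuclear genes of complexes I to V and within the 13 mitochondrial genes, for each hairpin against shCtrl, with calls at adjusted p under 0.05 in color and the median of all tested genes dotted. Nuclear members spread over -0.92 to 0.44 for shTRIB3-1 and -1.01 to 0.48 for shTRIB3-2. The 12 heavy-strand mitochondrial genes lie above 0 (medians 0.29 and 0.33) on this scale, and ND6 lies near -0.87 and -0.86. Several heavy-strand genes do not lie above 0 under quantile normalization, which by construction sets the top ranks equal.

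Complex I takes electrons from NADH. Of its 37 tested nuclear genes, 6 were higher and 15 lower with shTRIB3-1, and 6 were higher and 13 lower with shTRIB3-2. The shares lower, 40.5% and 35.1%, were at or below those of all tested genes (41.5% and 40.5%), and the shares higher, 16.2% with each, were below 32.9% and 35.4%. Among the 7 nuclear core subunits, which carry the flavin and the iron-sulfur clusters, 0 were higher and 4 lower with shTRIB3-1, and 1 was higher and 3 lower with shTRIB3-2. NDUFS3 was at 53.0, 52.4 and 49.96 FPKM in shCtrl, at 37.3, 36.5 and 37.3 in shTRIB3-1, and at 39.0, 40.4 and 37.4 in shTRIB3-2. It fell without overlap, with log2 fold changes of -0.48 (adjusted p = 1.25e-07) and -0.41 (adjusted p = 5.09e-07). NDUFS7 fell by 0.26 and 0.46. However, 51.4% of its exon bases lie opposite an exon of another gene. NDUFV1, which binds NADH and flavin, fell by 0.11 (adjusted p = 0.0302) and 0.21, and the first call was lost without shCtrl replicate 2, shCtrl replicate 3, shTRIB3-1 replicate 1 or shTRIB3-1 replicate 2 (adjusted p = 0.0642 to 0.111).

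NDUFV2, the partner of NDUFV1 in the NADH-binding module, was at 80.8, 82.9 and 81.4 FPKM in shCtrl, at 78.7, 80.4 and 80.9 in shTRIB3-1, and at 98.8, 103 and 94.3 in shTRIB3-2. It was higher with shTRIB3-2 alone, by 0.27 against control and by 0.30 against shTRIB3-1 (adjusted p = 2.39e-05). NDUFS1, the largest subunit of the same module, fell by 0.16 with shTRIB3-1, changed by 0.04 with shTRIB3-2 (not called), and differed by 0.20 between them (adjusted p = 0.000531). NDUFS8, which carries iron-sulfur clusters, was not called (-0.01 and 0.05). NDUFV1, NDUFV2 and NDUFS1 thus had different calls over the hairpins.

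The accessory subunits of complex I held its ends. NDUFB1, in the membrane arm, was at 58.9, 55.3 and 58.1 FPKM in shCtrl, at 36.4, 28.9 and 38.3 in shTRIB3-1, and at 35.8, 38.1 and 35.5 in shTRIB3-2 (log2 fold changes -0.74 and -0.65, adjusted p = 4e-06 and 1.13e-05). NDUFA6 was at 49.4, 46.2 and 44.9 in shCtrl, at 54.2, 56.0 and 52.8 in shTRIB3-1, and at 63.9, 65.9 and 65.8 in shTRIB3-2. It rose by 0.21 and 0.48 and differed by 0.26 between the hairpins (adjusted p = 0.000175), and no 2 of its 3 groups overlapped. NDUFB10, NDUFB11, NDUFA2, NDUFA5, NDUFA9, NDUFC1 and NDUFS5 were lower and NDUFB2 and NDUFB3 higher with both hairpins. These and further members named without a place in the rule for named genes were chosen after their values were seen. NDUFA3 was at 5.06, 5.04 and 3.97 in shCtrl, at 5.91, 5.39 and 5.62 in shTRIB3-1, and at 3.73, 4.23 and 3.97 in shTRIB3-2, so shTRIB3-1 lay above control (0.27) and shTRIB3-2 overlapped it (-0.23). NDUFA4 was not called (0.12 and -0.00). Its call with shTRIB3-1 depends on the method, since it was higher under 8 alternatives (adjusted p = 0.0203 to 0.0470), centring, quantile normalization, voom and leaving out shTRIB3-2 replicate 2 among them. Without the 3 libraries named above it was lower with shTRIB3-2 (-0.12, adjusted p = 0.0068). Its low-oxygen paralog NDUFA4L2 stayed under the minimum at 0.847, 1.19 and 0.601 FPKM in shCtrl and 0.136 to 0.606 in the knockdown libraries.

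Complex II oxidizes succinate and is shared with the citric acid cycle. Its 4 nuclear genes gave 1 rise and 3 falls with shTRIB3-1 and 0 rises and 2 falls with shTRIB3-2, too few genes to set against the shares of all tested genes. SDHD, a membrane anchor, was at 50.1, 53.1 and 52.5 FPKM in shCtrl, at 41.2, 42.9 and 42.1 in shTRIB3-1, and at 39.5, 40.1 and 42.8 in shTRIB3-2, a fall of 0.30 and 0.35 on the log2 scale without overlap. SDHA, the flavoprotein, was at 23.9, 23.9 and 24.0 in shCtrl, at 20.7, 19.8 and 19.3 in shTRIB3-1, and at 19.5, 18.7 and 20.1 in shTRIB3-2 (-0.26 and -0.30), although 21.7% of its exon bases also belong to a same-strand neighbour. The iron-sulfur subunit SDHB fell by 0.12 with shTRIB3-1 and changed by -0.03 with shTRIB3-2 (not called). SDHC, the other anchor, rose by 0.10 with shTRIB3-1 (adjusted p = 0.0435), a call lost without shCtrl replicate 1 (adjusted p = 0.101), shCtrl replicate 3 (0.111), shTRIB3-1 replicate 2 (0.108), shTRIB3-1 replicate 3 (0.149), shTRIB3-2 replicate 1 (0.0517) or shTRIB3-2 replicate 3 (0.0525).

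Complex III passes electrons from ubiquinol to cytochrome c. Of its 9 nuclear genes, 1 was higher and 5 lower with shTRIB3-1, and 0 were higher and 5 lower with shTRIB3-2 (55.6% lower with each, beside 41.5% and 40.5% of all tested genes). UQCRC2, a large core protein on the matrix side, was at 176, 175 and 177 FPKM in shCtrl, at 107, 108 and 105 in shTRIB3-1, and at 96.0, 99.1 and 95.3 in shTRIB3-2. All 3 groups were separate, with log2 fold changes of -0.72 (SE 0.03, adjusted p = 3.15e-10) and -0.86 (adjusted p = 5.21e-11), and -0.14 between the hairpins (adjusted p = 0.00108). Its partner UQCRC1 was at 108, 112 and 114 in shCtrl, at 111, 112 and 115 in shTRIB3-1, and at 108, 115 and 110 in shTRIB3-2, overlapping throughout (0.02 and -0.01, not called). The Rieske iron-sulfur protein UQCRFS1 was at 21.6, 21.3 and 22.2 in shCtrl, at 15.9, 16.8 and 16.5 in shTRIB3-1, and at 15.1, 15.6 and 16.9 in shTRIB3-2 (-0.40 and -0.45).

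UQCRB, a small subunit near the quinone site, fell by 0.17 and 0.19. The first call was lost without shCtrl replicate 2, shCtrl replicate 3 or shTRIB3-1 replicate 1 (adjusted p = 0.0566 to 0.0713) and the second without shTRIB3-2 replicate 1 (adjusted p = 0.0553). UQCR10 and UQCRQ also fell with both hairpins. UQCR11 rose by 0.10 with shTRIB3-1 (adjusted p = 0.0408), a call lost without shCtrl replicate 1, shTRIB3-1 replicate 1 or shTRIB3-1 replicate 3 (adjusted p = 0.162, 0.110 and 0.0841). UQCRH and UQCRHL are near-identical copies that can exchange fragments, and neither was called. CYC1, the cytochrome of this complex, lies outside the symbol rule. It fell by 0.67 and 0.63.

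**Figure D4:**
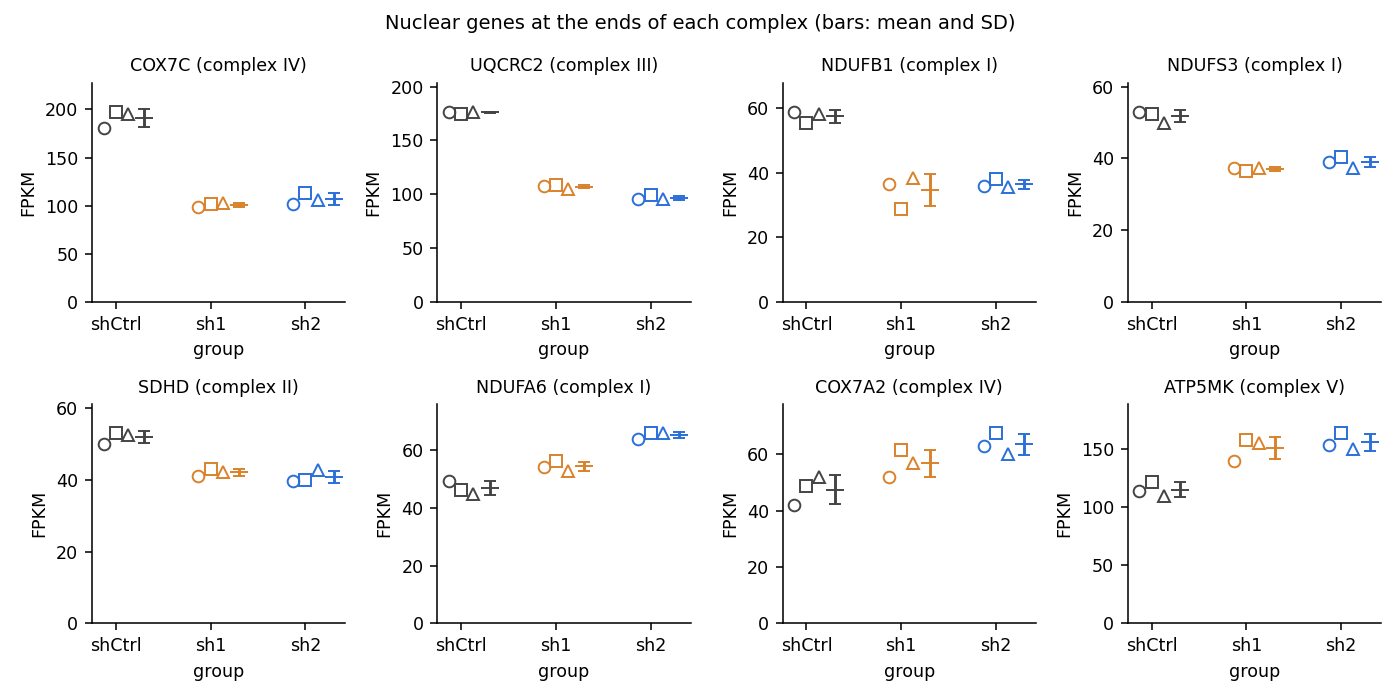
FPKM of 8 nuclear members in each of the 9 libraries (circles, squares and triangles for replicates 1, 2 and 3, with sh1 and sh2 for shTRIB3-1 and shTRIB3-2) with the group mean and SD (bars, n = 3), on axes that start at 0. COX7C, UQCRC2, NDUFB1, NDUFS3 and SDHD are lower in all knockdown libraries than in all controls, and NDUFA6, ATP5MK and COX7A2 are higher. Such separation was common among all tested genes. COX7A2 barely clears the controls in shTRIB3-1 (lowest 51.90 FPKM, highest control 51.87).

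Complex IV reduces oxygen, and its nuclear subunits surround the mitochondrial core. Of the 11 tested, 2 were higher and 2 lower with shTRIB3-1 and 3 were higher and 3 lower with shTRIB3-2. Shares lower of 18.2% and 27.3% were below the 41.5% and 40.5% of all tested genes. COX7C was at 180, 198 and 195 FPKM in shCtrl, at 98.7, 101 and 103 in shTRIB3-1, and at 102, 114 and 105 in shTRIB3-2. It fell by 0.92 (SE 0.04, adjusted p = 2.67e-09) and 0.84 (adjusted p = 5.22e-09), the largest fall of a tested nuclear member with shTRIB3-1. COX7A2 was at 42.0, 48.6 and 51.9 in shCtrl, at 51.9, 61.6 and 57.1 in shTRIB3-1, and at 63.0, 67.6 and 60.2 in shTRIB3-2 (0.26 and 0.42). Its relative COX7A2L, which links complexes III and IV, rose by 0.20 with shTRIB3-1, changed by -0.03 with shTRIB3-2 (not called), and differed by -0.23 between them.

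The other subunits of complex IV moved little. COX5A fell by 0.14 and 0.19. COX5B changed by -0.10 (not called) and -0.13 (adjusted p = 0.0449), a call lost without shCtrl replicate 2 or 3, shTRIB3-1 replicate 2 or 3, or shTRIB3-2 replicate 1 or 3 (adjusted p = 0.0507 to 0.173). COX6A1 (-0.01, then 0.19) and COX6C (0.05, then 0.21) were higher with shTRIB3-2 only by their calls, and the hairpins differed for COX6A1 (0.21, adjusted p = 0.00234) but not at the threshold for COX6C (0.16, adjusted p = 0.0854). The call of COX6C with shTRIB3-2 was lost without shCtrl replicate 1, shTRIB3-2 replicate 1 or shTRIB3-2 replicate 2 (adjusted p = 0.0510 to 0.0707). Same-strand neighbours share 13.1% of the exon bases of COX6A1 and 35.4% of those of COX8A. COX4I1, COX6B1, COX7B and COX8A were not called. Some of these calls also rest on 1 library: without shCtrl replicate 1 COX8A was called with both hairpins (adjusted p = 0.00465 and 0.0184) and COX5B with shTRIB3-1 (0.0145), and without shCtrl replicate 2 COX4I1 was called with shTRIB3-1 (0.0390). Of the tissue-restricted isoforms, COX4I2 and COX8C were at 0 in most libraries, and COX6B2 was at 0.0418 to 0.342 FPKM, all under the minimum.

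ATP synthase has a catalytic F1 head in the matrix and a ring of c subunits in the membrane, joined by a stalk. Of its 17 tested nuclear genes, 4 were higher and 8 lower with shTRIB3-1, and 3 were higher and 7 lower with shTRIB3-2. Against 41.5% and 40.5% of all tested genes, 47.1% and 41.2% of these genes were lower, which is near the background. The falls with both hairpins were those of the head, the inhibitor and the ring, and ATP5ME fell with shTRIB3-1. All 4 tested subunits of the F1 head were lower with both hairpins, as was the inhibitor, and so were 2 of the 3 genes of the ring. In the peripheral stalk 1 of 4 was higher and 0 lower with each hairpin, and among the other membrane subunits 3 of 5 were higher and 1 lower with shTRIB3-1, and 2 higher and 0 lower with shTRIB3-2.

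ATP5F1A, the alpha subunit, was at 78.4, 82.4 and 83.7 FPKM in shCtrl, at 58.2, 59.0 and 61.4 in shTRIB3-1, and at 55.5, 58.7 and 58.2 in shTRIB3-2 (-0.45 and -0.50). ATP5F1B, the beta subunit that holds the catalytic sites, was at 354, 363 and 366 in shCtrl, at 300, 316 and 305 in shTRIB3-1, and at 307, 312 and 308 in shTRIB3-2 (-0.23 and -0.22). The rotor subunit ATP5F1C fell by 0.29 and 0.23. ATP5F1D, the delta subunit of the central stalk, was at 36.0, 34.5 and 36.0 in shCtrl, at 27.9, 28.9 and 28.9 in shTRIB3-1, and at 16.8, 18.05 and 18.04 in shTRIB3-2. Its 3 groups were separate. It fell by 0.31 (SE 0.04, adjusted p = 1.03e-05) and by 1.01 (SE 0.04, adjusted p = 2.24e-10), and by 0.69 between the hairpins (adjusted p = 7.4e-08). ATP5F1E, the epsilon subunit, was below the minimum at 0.486 to 0.789 FPKM. These values rest on 60 to 102 fragments over an annotated length of 3610 bases, beside 571 to 1285 fragments over 995 bases for ATP5F1D. The reason for so few fragments was not tested.

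The inhibitor ATP5IF1, which stops the enzyme from running backwards, was at 66.3, 64.6 and 67.1 FPKM in shCtrl, at 45.2, 47.7 and 45.9 in shTRIB3-1, and at 50.7, 50.6 and 46.7 in shTRIB3-2 (-0.51 and -0.42). The c ring is encoded by ATP5MC1, ATP5MC2 and ATP5MC3, whose mature proteins are alike. ATP5MC1 was at 97.9, 102 and 97.7 in shCtrl, at 71.5, 71.7 and 72.7 in shTRIB3-1, and at 69.1, 71.5 and 69.5 in shTRIB3-2 (-0.46 and -0.50). ATP5MC2 fell by 0.56 and 0.71, while ATP5MC3 changed by -0.10 and 0.02 and was not called. It was lower with shTRIB3-1 under 4 alternatives, namely without shCtrl replicate 1 (adjusted p = 0.00841), after rescaling to TPM (0.0230), with a replicate block (0.0437) and without the 3 libraries named above (0.00356), and the last also gave a fall with shTRIB3-2 (-0.09, adjusted p = 0.0211). The c ring genes thus divided, with separated groups for ATP5MC1 and overlap for ATP5MC3.

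Among the rises, ATP5MK, a small membrane subunit at the dimer interface, was at 114, 122 and 110 FPKM in shCtrl, at 140, 157.6 and 155 in shTRIB3-1, and at 153, 164 and 150 in shTRIB3-2 (0.39 and 0.44, without overlap), and 15.4% of its exon bases also belong to a same-strand neighbour. ATP5MJ, also a small membrane subunit, rose by 0.44 and 0.29. ATP5PD, the d subunit of the peripheral stalk, rose by 0.22 and 0.41, and 19.1% of its exon bases lie opposite an exon of another gene. ATP5ME fell by 0.39 with shTRIB3-1 and changed by -0.12 with shTRIB3-2 (not called), and 61.3% of its exon bases lie opposite another gene, from which its fragments may not be separable. ATP5PB, ATP5PF, ATP5PO and ATP5MF were not called with either hairpin.

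**Figure D5:**
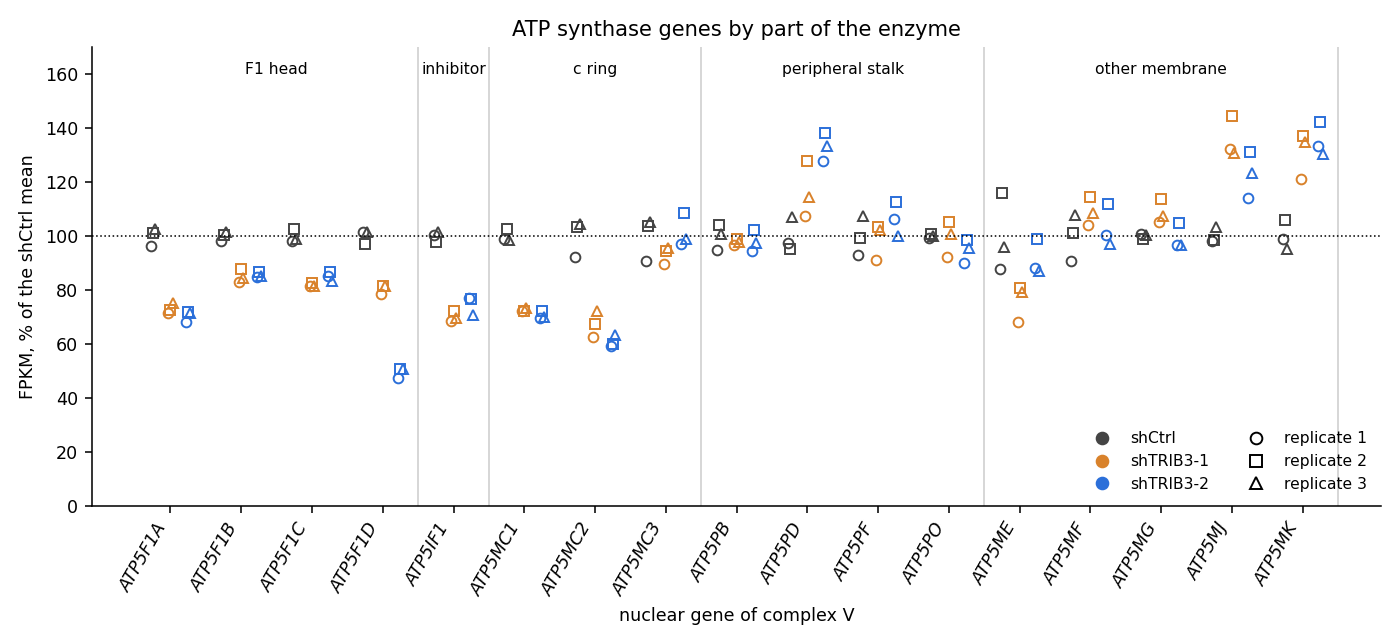
FPKM of the 17 tested nuclear genes of ATP synthase in each of the 9 libraries, as a percentage of the shCtrl mean of the same gene (dotted line), grouped by part of the enzyme. The genes of the F1 head, the inhibitor, ATP5MC1 and ATP5MC2 lie below the control libraries with both hairpins, ATP5MJ and ATP5MK lie above, and ATP5F1D is lower with shTRIB3-2 than with shTRIB3-1.

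Between the hairpins, 10 of the 78 nuclear members were higher and 11 lower with shTRIB3-2 (12.8% and 14.1%, beside 25.1% and 20.7% of all tested genes). The split was 18 and 9 after rescaling to TPM and 6 and 13 after centring. Without the 3 libraries named above it was 7 and 22. It was also 14 and 8 without shTRIB3-1 replicate 2, and 6 and 14 without shTRIB3-2 replicate 2. With a minimum rise of 25% or fall of 20% there were 0 higher and 2 lower, ATP5F1D and NDUFA3 (8.98% and 9.51% of all tested genes). At an unadjusted p under 0.05, 27 differed, and voom called 25, again without the shares of all tested genes. A smaller difference was that of NDUFV3, which was lower by 0.31 with shTRIB3-1 and changed by -0.02 with shTRIB3-2 (not called), with 0.30 between them.

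The promoters of these genes are known for sites of NRF1, ETS factors such as GABP, and YY1, and some members that moved together are shown with such motifs. RefSeq gave a promoter (GRCh38.p14, 250 bases before to 50 bases after the gene start) for 67 of the 84 nuclear members, and the motifs were searched on both strands. The NRF1 motif, GCGCA and GCGC on either side of any 1 base, read on either strand, was found in 17 of 67 (25.4%), beside 6.28% of all 27305 promoters and 12.4% of those of tested genes. The ETS motif CCGGAAG was found in 20 (29.9%, beside 10.7% and 20.6%). The YY1 motif AANATGGCG, whose first bases can overlap an ETS match, was found in 16 (23.9%, beside 3.37% and 7.56%), and at least 1 of the motifs in 41 (61.2%, beside 17.9% and 35.1%).

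Of the members lower with both hairpins, 23 had a promoter and 9 of these held a motif, and of the 7 higher with both, 4 did. The NRF1 motif was in 6 of the 23 and 1 of the 7, the ETS motif in 3 and 2, and the YY1 motif in 5 and 1. Windows of 30 bases are shown in the direction of the gene, with the match on either strand in capitals, for a member that fell and one that rose with each motif. They lie at chr19:29213163-29213192 (UQCRFS1, minus), chr14:103921527-103921556 (ATP5MJ, minus), chr11:47578979-47579008 (NDUFS3, plus), chr10:103396618-103396647 (ATP5MK, minus), chr12:4649113-4649142 (NDUFA9, plus) and chr22:42090729-42090758 (NDUFA6, minus).
UQCRFS1, NRF1, lower: gcgcctcctcGCGCCTGCGCcgtggttgga
ATP5MJ, NRF1, higher: tcccctgcgcGCGCCTGCGCgctcggtgac
NDUFS3, ETS, lower: ctccacgtccgcCCGGAAGaagatctgctg
ATP5MK, ETS, higher: agtgcaattcttCCGGAAGtgtgggcgggc
NDUFA9, YY1, lower: gattgtgggaaAAGATGGCGgctgccgcac
NDUFA6, YY1, higher: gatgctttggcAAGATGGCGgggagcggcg
Each motif was thus present in promoters of members of both directions, and a match in letters is not evidence that a factor was bound.

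Regulators and partners of the pathway moved in both directions, and their counts are to be read against 32.9% higher and 41.5% lower with shTRIB3-1 and 35.4% and 40.5% with shTRIB3-2 over all tested genes. Of 8 tested nuclear regulators, 3 were higher and 4 lower with shTRIB3-1, and 3 were higher and 5 lower with shTRIB3-2. PPARGC1A, a coactivator of mitochondrial biogenesis and gluconeogenesis, was at 1.83, 1.66 and 1.93 FPKM in shCtrl, at 0.329, 0.299 and 0.287 in shTRIB3-1, and at 0.400, 0.312 and 0.463 in shTRIB3-2. It is counted among the lower regulators, but it reached the minimum in the control libraries alone and so had to differ in order to be tested, and its values are a description. GABPB1, a subunit of GABP, rose by 0.58 and 0.52 and ESRRA, a nuclear receptor partner of PPARGC1A, by 0.38 and 0.35. NRF1 fell by 0.46 and 0.41 and YY1 by 0.25 and 0.20.

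Of 51 tested factors that assemble the complexes, 9 were higher and 26 lower with shTRIB3-1, and 11 were higher and 22 lower with shTRIB3-2 (51.0% and 43.1% lower). COA8, an assembly factor of complex IV, was at 10.8, 11.2 and 12.1 FPKM in shCtrl, at 20.003, 22.3 and 20.1 in shTRIB3-1, and at 18.9, 20.04 and 20.1 in shTRIB3-2 (0.86 and 0.79). ECSIT, an assembly factor of complex I, fell by 0.53 and 0.92, and by 0.39 between the hairpins. Of 21 genes that replicate and transcribe mitochondrial DNA, 2 were higher and 10 lower with shTRIB3-1, and 2 higher and 11 lower with shTRIB3-2, from DGUOK, which makes DNA precursors (0.31 and 0.44), to PRIMPOL, a primase (-0.64 and -0.55). TFAM, which packages the mitochondrial genome and starts its transcription, fell by 0.29 and 0.36, and the RNA polymerase POLRMT was not called (0.05 and -0.06).

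Of 20 tested genes that process or stabilize mitochondrial RNA, 6 were higher and 10 lower with shTRIB3-1, and 5 higher and 10 lower with shTRIB3-2. FASTKD5, which is needed for the maturation of some mitochondrial messenger RNAs, rose by 0.62 with each hairpin. MTPAP, the mitochondrial poly(A) polymerase, fell by 0.65 and 0.63, and LRPPRC, which stabilizes mitochondrial messenger RNAs, by 0.22 and 0.31. Of 17 genes of the citric acid cycle, 6 rose and 6 fell with shTRIB3-1, and 6 rose and 5 fell with shTRIB3-2, from SUCLA2 (0.44 and 0.32) to FH (-0.58 and -0.47). Of 14 genes of the outer membrane and of import and folding, 5 were higher and 7 lower with shTRIB3-1, and 2 higher and 8 lower with shTRIB3-2, with the channels VDAC2 (0.51 and 0.46) and VDAC3 (-0.44 and -0.60) at the ends. NDUFAB1, the acyl carrier protein of complex I, and CYCS, cytochrome c, lie outside the symbol rule and changed by -0.32 and -0.49, and by -0.21 and -0.08 (the last not called).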

How the data were processed

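The authors deposited FPKM values for each library in 1 table. The submitters' processing notes name GRCh38, HTSeq and R 3.2.0. The study's methods name STAR and DESeq2. The annotation release and the strand setting are not given in the sources used here. The methods describe RNA from glutamine-deprived cells and a strand-specific kit, the labels complete high-glucose medium and another kit, so the medium at harvest is uncertain. Gene lengths behind the FPKM are unions of annotated exons, which lowers the FPKM of genes with long annotated exons.

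Libraries were grouped by label, 3 per group, and 0 columns were left unmapped. FPKM values of a gene are whole numbers of fragments divided by 1 length and by the library total. Solving for both gave whole fragments, within 0.02, for 172769 of 172769 values above 0. Each library held at least 34206726 fragments. Counting error was small beside the spread between libraries for some members, such as ATP8 (7654, 2814 and 4996 fragments in shCtrl). For others the spread was no larger than counting error, as for ATP5MC1 in shTRIB3-1 (1580, 1588 and 1635 fragments). How many members fall on each side was not counted. Fragments carry no molecular identifiers. Replicate pairs differed by more than sampling noise (chi-square per degree of freedom 3.13 to 7.54), so no library is a copy. Nothing says that replicates are separate cultures, so p-values measure only the spread between these libraries.

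Genes with FPKM of at least 1 in at least 3 of 9 libraries (11265) were taken as log2(FPKM + 0.1). Log2 fold changes refer to FPKM + 0.1, so those of low genes are understated. A model of 3 group means was fitted with limma 3.58.1 in R 4.3.3 (empirical Bayes with a trend), with two-sided p-values adjusted by Benjamini-Hochberg over all tested genes. The 3 comparisons were each hairpin against shCtrl and the hairpins against each other. Steps were tested on simulated data. Alternatives covered pseudocount, minimum level, TPM, centring, quantile normalization, removal of mitochondrial fragments from the total, robust moderation, voom on the fragment numbers, only the groups compared, a replicate block, a minimum change, and leaving out each library.

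Members and lists were chosen with earlier results of these data known. Named were the 13 mitochondrial genes, nuclear subunits fixed by role, the largest mean rise and fall in each complex and list, and members past a log2 fold change of 1. The values of 1 member are not reported here. Promoters are from RefSeq, and other coordinates from GENCODE annotation of GRCh38.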

Additional observations from a re-analysis of the deposited data

Results flagged for a closer look

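ATP5F1D, the delta subunit of ATP synthase, fell further with shTRIB3-2 than with shTRIB3-1, and the test between the hairpins gave a log2 difference of -0.69 (limma, adjusted p = 7.4e-08). All 3 shTRIB3-2 libraries lay below all 3 shTRIB3-1 libraries. NDUFA3, an accessory subunit of complex I, was called higher with shTRIB3-1 and lower with shTRIB3-2. The log2 difference between the hairpins was -0.49 (limma, adjusted p = 0.000855), again without overlap. Its shTRIB3-2 libraries did overlap those of shCtrl, and its calls were not followed through the alternatives. NDUFA3 is the member with the lowest FPKM in shCtrl of those tested. Groups of 3 libraries are too small for a test of single outlying libraries.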

How the results depend on the processing

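Members called numbered 59, 50 and 21 (shTRIB3-1, shTRIB3-2, shTRIB3-2 against shTRIB3-1), and 49 to 62, 46 to 54 and 16 to 28 when 1 library was left out. A minimum rise of 25% or fall of 20% left 21, 24 and 2, and of 1 on the log2 scale 0, 1 and 0. The mitochondrial minus nuclear median was 0.31, 0.34 and -0.01, and 0.12 and 0.0488 against shCtrl under quantile normalization, which by construction sets the top ranks equal. Leaving out 1 library gave 0.242 to 0.416 (the highest without shCtrl replicate 1), 0.254 to 0.444 and -0.0988 to 0.0146, the last turning sign without shTRIB3-1 replicate 1 (0.0146) or shTRIB3-2 replicate 3 (0.0130). Without the 3 libraries high in mitochondrial genes, chosen after seeing the data, 36 members differed between the hairpins, with a median difference of 0.00887.

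Deviations of same-numbered libraries were at most weakly correlated (r from -0.07 to 0.09). Between the hairpins they were 0.09, 0.06 and 0.03. Weak correlations of this kind cannot decide whether the numbers pair the libraries, and the main model did not pair them. A replicate block called 65, 56 and 27 members, more than the 59, 50 and 21 without it. Of the values for named genes under alternatives, 3649 kept their side of the threshold, 122 passed it, 114 lost it and 6 turned with a call under either setting. The 3649 include changes of sign with no call under either setting. Quantile normalization turned COX2 (-0.0586), COX3 (-0.0484) and ND2 (-0.0425) with shTRIB3-1, and ATP6 (-0.198) and ND2 (-0.0850) with shTRIB3-2. COX2 (-0.06) and ND4 (-0.06) with shTRIB3-2 changed sign without a call under either. ATP5MC3 turned with shTRIB3-2 without the 3 libraries (-0.0940). At this depth COX4I2, COX8C and ATP5MGL had 0 to 2 fragments per library, too few to compare groups.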
